A study of Rattus norvegicus with 6 samples.

Results

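The 10 genes described here code for proteins of the bone morphogenetic protein (BMP) pathway, namely the ligands Bmp2 and Bmp4, the secreted binding proteins Grem1, Fst and Twsg1, the inhibitory Smads Smad6 and Smad7, and the Id genes Id1, Id2 and Id3. They were taken by symbol from the authors' expression table, which lists all 10 of them among 13526 genes, so 0 were missing. RNA was sequenced from primary vascular smooth muscle cells (VSMCs) of the thoracic aorta of wild-type male rats, grown in osteogenic media (OM), a medium with 10 mM β-glycerophosphate and 3.5 mM CaCl2 that induces calcification. In 3 samples 1 μM empagliflozin was added (OM plus EMPA group), which blocks the renal glucose transporter SGLT2, and 3 samples were left without it (OM group). The labels give 5 days of treatment, and the study's text gives a shorter time for these samples. The sample titles read Pi and Pi+E, while the treatment labels and the study's text for this experiment name OM. Pi (inorganic phosphate) is a separate calcifying medium elsewhere in the study, so which medium these cells received cannot be settled from the labels, and OM is used here as the treatment labels have it. Both groups carry the same medium under either reading. Whether the replicates were separate cultures is stated in neither source, so a p-value here covers only how far these libraries spread, and that spread may be technical. VSMCs in medium without the calcifying additions were not analysed here, so the effect of OM itself on these genes was not measured.

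BMP ligands bind pairs of type I and type II receptor kinases, which phosphorylate Smad1, Smad5 and Smad9. These join Smad4 in the nucleus and switch on target genes, of which the Id genes respond most directly, and the inhibitory Smads are targets that feed back on the receptors. Outside the cell, antagonists such as gremlin bind the ligands before they reach a receptor. In the vessel wall BMP2 is known as a driver of the osteogenic differentiation of VSMCs, and the study used it as a marker of that state. Id proteins lack a DNA-binding domain and act by holding E proteins, transcription factors of the helix-loop-helix class, away from DNA.

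Values are TPM, shares of a library's transcripts after correction for transcript length, which can be compared between genes. They summed to 997954 to 998293 per library, so they hold no record of sequencing depth. The comparison used limma on log2(TPM + 1), took in the 12564 genes that averaged 1 TPM or more, and called a gene higher or lower at an adjusted p of 0.05 or less. All 10 genes passed this filter. Of 8 smooth muscle markers 7 were listed, Des was not, and 6 were tested, as Myocd was under the filter. Of these 6, 4 were called higher with empagliflozin and 0 lower, against 2.06% and 4.86% of all tested genes. Smtn (log2 fold change 0.15, limma adjusted p = 0.166) and Myh11 (-0.17, limma adjusted p = 0.455) did not pass. Summed over those listed, levels were 2478 to 2925 TPM in OM plus EMPA libraries against 1756 to 2158 TPM in OM libraries. Of 5 markers of adventitial fibroblasts all were listed, with Lum and Dcn abundant, and 4 were tested, as Dpt was under the filter. Of these 4, 2 (Pdgfra and Dcn) were called lower and 0 higher, against 4.86% and 2.06% of all tested genes. Lum (log2 fold change -0.09, limma adjusted p = 0.248) and Pi16 (0.26, limma adjusted p = 0.235) did not pass. The sums were 4637 to 5409 TPM with empagliflozin and 6093 to 6937 TPM without. Dcn made up most of them, with means of 4113 and 5401 TPM, while Pi16 averaged 4.76 and 3.86 TPM, in the same order. The study's text says that adventitia and intima were removed before culture. Whether these transcripts came from fibroblasts was not tested. None of 6 endothelial markers was listed, and of 6 macrophage and leukocyte markers only Cd68 was, at 5.10 to 9.52 TPM with empagliflozin and 12.8 to 14.9 TPM without. Cd68 was called lower (log2 fold change -0.83, limma adjusted p = 0.0378). The part of these shifts in the values below was not tested, and fewer cells of a type cannot be told apart from less RNA per cell.

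Within the pathway, Id3, Smad6 and Twsg1 rose and Bmp2 and Fst fell in the OM plus EMPA group. The other 5 genes, Id1, Id2, Smad7, Bmp4 and Grem1, did not pass the test. The calls thus comprised 3 of 10 genes higher, where 2.06% of all tested genes were higher, and 2 of 10 lower, where 4.86% of all tested genes were lower. Over all tested genes these were 259 higher and 611 lower, and 393 and 380 under median-ratio scaling, where Id3, Smad6 and Twsg1 were still called higher and only Fst lower. At an unadjusted p under 0.05 from limma 6 were higher, against 6.42% of all tested genes, and 3 were lower, against 17.6%. The median log2 fold change was 0.28 over the 10 genes and -0.05 over all tested genes. The TPM of both groups did not overlap for 7 genes, of which 5 (Id1, Id2, Id3, Smad6 and Twsg1) were higher, against 7.85% of all tested genes, and 2 (Bmp2 and Fst) were lower, against 22.5%. Of the 5 calls, only that of Fst was kept when any 1 of the 6 libraries was left out. When limma's variance trend was switched off, Fst was the only call among the 10.

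**Figure D1:**
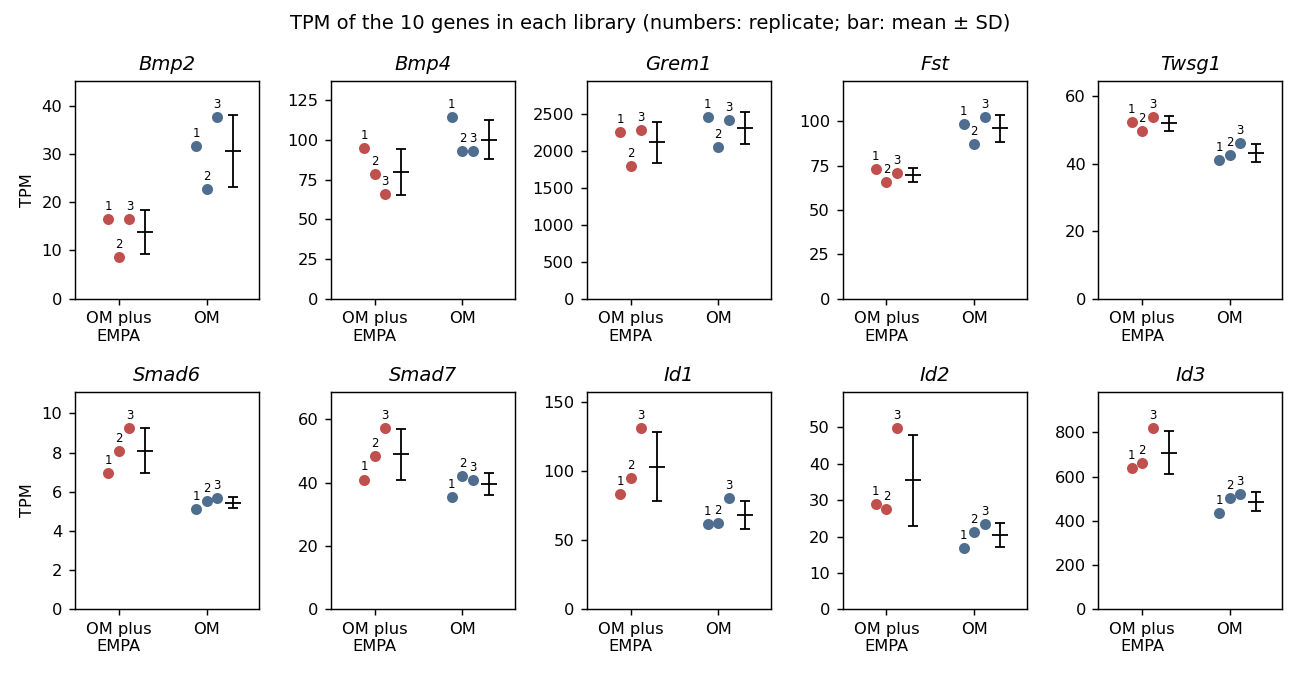
TPM of each of the 10 genes (vertical axes, each from 0) in the OM plus EMPA and OM libraries, with points numbered by replicate and bars for the mean ± SD of 3 libraries. Both groups of points are apart for Bmp2, Fst, Twsg1, Smad6, Id1, Id2 and Id3 and overlap for Bmp4, Grem1 and Smad7.

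Levels differed widely between the 10 genes. Grem1 was the most abundant, with means of 2113 TPM with empagliflozin and 2305 TPM without, followed by Id3 at 707 and 487 TPM. Smad6 was the least abundant, at 8.10 and 5.44 TPM. In the OM plus EMPA group the order below Id3 was Id1, Bmp4, Fst, Twsg1, Smad7, Id2, Bmp2 and Smad6, in which the libraries of Id1 and Bmp4, Bmp4 and Fst, Twsg1 and Smad7, Smad7 and Id2, and Bmp2 and Smad6 overlapped. In the OM group the mean of Bmp2 lay above that of Id2, with overlapping libraries, and Id1 lay below both Bmp4 and Fst.

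Bmp2, the ligand best known for inducing bone, was lower in all OM plus EMPA libraries. It lies on chromosome 3 from 120811762 to 120823130 in the authors' table (genome build not given in the sources used here). Its level was 16.5, 8.62 and 16.5 TPM in the OM plus EMPA libraries, against 31.7, 22.7 and 37.6 TPM in the OM libraries. The groups did not overlap, and replicate 2 was the lowest library of each group. The means were 13.9 ± 4.54 TPM with empagliflozin and 30.7 ± 7.5 TPM without (SD, n = 3 each), a ratio of 0.452. On the log2(TPM + 1) scale Bmp2 fell by 1.12 (SE 0.26, 95% interval -1.71 to -0.52, limma adjusted p = 0.0443). This call was lost when any library other than OM replicate 2 was left out (adjusted p of up to 0.127 from limma, without OM replicate 3) and under median-ratio scaling of the libraries (limma adjusted p = 0.0529), while the log2 fold change stayed between -1.31 and -0.83.

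Bmp4, the other ligand, was several times more abundant than Bmp2. It was at 94.9, 78.7 and 66.0 TPM with empagliflozin and at 114, 93.1 and 92.8 TPM without. Replicate 1 of the OM plus EMPA group lay above 2 of the OM libraries, so the groups overlapped. The log2 fold change was -0.33 (SE 0.13, 95% interval -0.64 to -0.02, limma adjusted p = 0.185) and did not pass the test. It was -0.20 without OM plus EMPA replicate 3, the library lowest in Bmp4 (limma adjusted p = 0.371). The ratio of Bmp4 to Bmp2 within a library, which does not depend on how libraries are scaled, was 5.77, 9.13 and 4.0 in the OM plus EMPA libraries and 3.61, 4.10 and 2.47 in the OM libraries, so these ranges overlapped as well.

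Among the secreted binding proteins Fst fell and Twsg1 rose, and the value of Grem1 did not pass the test. Fst encodes follistatin, which binds activins tightly and BMPs less so. It lies on chromosome 2 from 46123261 to 46130594. Fst was at 73.3, 65.7 and 71.2 TPM in the OM plus EMPA libraries, against 98.6, 87.5 and 102 TPM in the OM libraries. Every library with empagliflozin lay below every library without it. The means were 70.0 ± 3.92 TPM and 96.2 ± 7.72 TPM in the OM plus EMPA and OM groups (SD, n = 3 each), a change of -27.2%. The log2 fold change was -0.45 (SE 0.069, limma adjusted p = 0.0115), and the adjusted p was between 0.00929 and 0.0444 from limma with any 1 library left out.

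Twsg1 encodes twisted gastrulation, which binds BMPs together with chordin and can either block or release them. It lies on chromosome 9 from 105533136 to 105567479. Its level was 52.5, 49.6 and 53.8 TPM with empagliflozin and 41.1, 42.5 and 46.1 TPM without. The groups did not overlap, and the spread within each was small (coefficients of variation of 4.14% and 5.93% in the OM plus EMPA and OM groups). Twsg1 rose by 0.26 on the log2 scale (SE 0.058, 95% interval 0.13 to 0.40, limma adjusted p = 0.0393). The call was kept without OM replicate 3 only, and was lost without any of the other libraries (adjusted p of up to 0.114 from limma, without OM plus EMPA replicate 3).

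Grem1, which encodes the BMP antagonist gremlin 1, was at 2257, 1797 and 2284 TPM in the OM plus EMPA libraries and at 2450, 2052 and 2414 TPM in the OM libraries. Replicate 2 was the lowest of each group, and the groups overlapped. The log2 fold change was -0.13 (95% interval -0.38 to 0.12, limma adjusted p = 0.507). Without OM plus EMPA replicate 2 it was -0.02, without OM replicate 1 it was -0.08 and without OM replicate 2 it was -0.21, and Grem1 passed the test in none of these fits (adjusted p of 0.311 to 0.935 from limma). Grem1 transcripts outnumbered those of Bmp4 in every library, by 23.8, 22.8 and 34.6 to 1 with empagliflozin and by 21.4, 22.0 and 26 to 1 without. The ratio of Bmp2 to Fst was 0.224, 0.131 and 0.232 in the OM plus EMPA libraries and 0.321, 0.260 and 0.368 in the OM libraries. The ranges of this ratio did not overlap, so Bmp2 was lower even relative to Fst, which itself fell. The ratio was not tested, and no such count was made over other gene pairs.

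**Figure D2:**
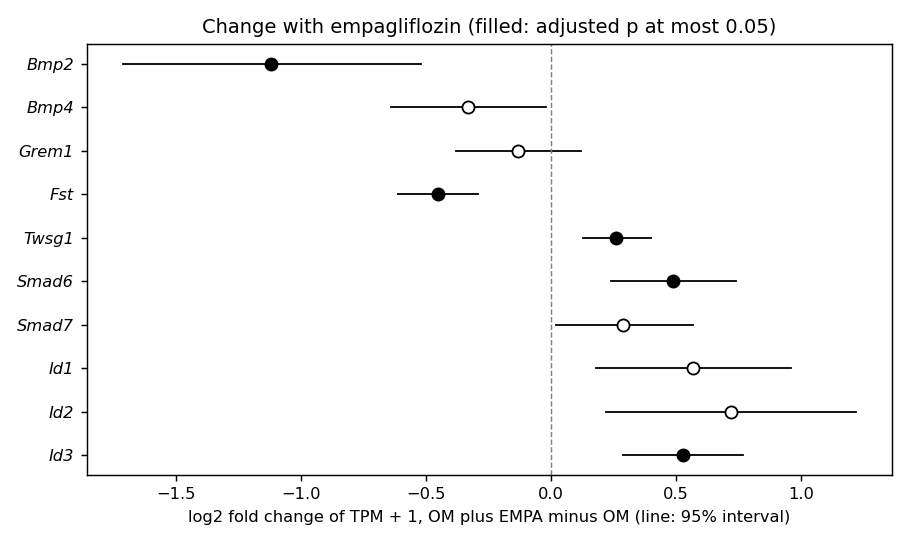
Log2 fold change of TPM + 1, OM plus EMPA minus OM, for each of the 10 genes (points) with its 95% interval from limma (lines), filled where the adjusted p was at most 0.05. Bmp2 has the widest interval, -1.71 to -0.52, and Id3, Smad6 and Twsg1 are filled to the right of 0.

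The inhibitory Smads are brakes on receptor signalling. Smad6 acts mainly on the BMP branch and Smad7 on both the BMP and the TGF-β branch. Smad6 lies on chromosome 8 from 64450114 to 64519763 and Smad7 on chromosome 18 from 68988220 to 69016774. Smad6 was at 6.94, 8.10 and 9.25 TPM in the OM plus EMPA libraries, against 5.13, 5.52 and 5.68 TPM in the OM libraries. Every OM plus EMPA library lay above every OM library. Smad6 rose by 0.49 (SE 0.11, 95% interval 0.24 to 0.74, limma adjusted p = 0.0391), which at this low level understates the ratio of means of 1.49. The call was kept without OM plus EMPA replicate 1 and was lost without any of the other libraries (adjusted p of up to 0.116 from limma, without OM replicate 1).

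Smad7 was at 41.0, 48.5 and 57.3 TPM with empagliflozin and at 35.6, 42.2 and 40.8 TPM without. The groups overlapped through OM plus EMPA replicate 1. The log2 fold change of Smad7 was 0.29 (95% interval 0.02 to 0.57, limma adjusted p = 0.186), which did not pass the test. The ratio of Smad6 to Smad7 within a library was 0.169, 0.167 and 0.162 in the OM plus EMPA libraries and 0.144, 0.131 and 0.139 in the OM libraries. These ranges did not overlap, although Smad7 stayed the more abundant transcript in all 6 libraries. The ratio was not tested, and how often ratios of other gene pairs are apart was not counted.

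The Id genes were higher in every OM plus EMPA library than in any OM library, but only Id3 passed the test. Id3 lies on chromosome 5 from 148372762 to 148374349, Id1 on chromosome 3 from 141211267 to 141212419 and Id2 on chromosome 6 from 41728946 to 41744400. Id3 was at 641, 662 and 819 TPM in the OM plus EMPA libraries, against 437, 503 and 522 TPM in the OM libraries. It rose by 0.53 on the log2 scale (SE 0.1, 95% interval 0.29 to 0.77, limma adjusted p = 0.0264). The call was kept without OM plus EMPA replicate 1 or 3 and was lost without any of the other 4 libraries (adjusted p of up to 0.0767 from limma, without OM replicate 1).

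Id1, which marks BMP signalling in many cell types, was at 83.4, 95.3 and 131 TPM with empagliflozin and at 62.2, 62.8 and 80.5 TPM without. Its log2 fold change was 0.57 (SE 0.17, 95% interval 0.18 to 0.96, limma adjusted p = 0.0882). Id2, which is also expressed under other signals, was at 28.9, 27.7 and 49.8 TPM with empagliflozin and at 17.0, 21.1 and 23.4 TPM without. Its log2 fold change was 0.72 (SE 0.22, 95% interval 0.22 to 1.22, limma adjusted p = 0.0941). The point estimates of Id1 and Id2 were thus as large as that of Id3, and their spread was wider, with coefficients of variation of 24.2% for Id1, 35.1% for Id2 and 13.8% for Id3 in the OM plus EMPA group.

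Together the transcripts of the 3 Id genes summed to 753, 785 and 1001 TPM in the OM plus EMPA libraries, against 516, 586 and 626 TPM in the OM libraries. Id3 made up most of this sum throughout, with 81.9% to 85.1% in the OM plus EMPA group and 83.4% to 85.7% in the OM group. Id1 made up 11.1% to 13.1% and 10.7% to 12.9%, and Id2 3.52% to 4.98% and 3.29% to 3.74%, in the same order of groups. The shares of all 3 overlapped between the groups.

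The stretches before the start sites of the Id genes and of Smad7 are shown. The groups' libraries did not overlap for Id1, Id2 or Id3, although only Id3 passed the test, and the stretch of Smad7 holds the motif searched for. Those of Twsg1, whose libraries did not overlap either, and of Grem1, which also holds the motif, are not printed. They are the 250 bases before each start in RefSeq, on build GRCr8, at chr3:161671314-161671563 on the plus strand for Id1, chr6:47470996-47471245 on the minus strand for Id2, chr5:153656041-153656290 on the plus strand for Id3 and chr18:71263258-71263507 on the plus strand for Smad7. Capitals mark GGCGCC, a GC-rich element that BMP Smads bind, which reads the same on both strands.

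Id1: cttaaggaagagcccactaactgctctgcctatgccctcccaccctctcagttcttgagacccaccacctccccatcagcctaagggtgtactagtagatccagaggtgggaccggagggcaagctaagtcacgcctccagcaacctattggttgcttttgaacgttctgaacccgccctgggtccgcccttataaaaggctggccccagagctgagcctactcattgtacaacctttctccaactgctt

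Id2: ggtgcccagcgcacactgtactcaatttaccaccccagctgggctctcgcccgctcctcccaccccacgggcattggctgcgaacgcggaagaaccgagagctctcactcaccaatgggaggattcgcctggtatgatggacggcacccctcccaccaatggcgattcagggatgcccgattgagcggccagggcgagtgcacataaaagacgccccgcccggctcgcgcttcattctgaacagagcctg

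Id3: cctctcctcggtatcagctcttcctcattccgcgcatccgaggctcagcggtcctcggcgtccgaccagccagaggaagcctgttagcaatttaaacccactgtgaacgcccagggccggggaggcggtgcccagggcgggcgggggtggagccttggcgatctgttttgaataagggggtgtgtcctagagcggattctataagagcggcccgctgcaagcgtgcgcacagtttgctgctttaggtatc

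Smad7: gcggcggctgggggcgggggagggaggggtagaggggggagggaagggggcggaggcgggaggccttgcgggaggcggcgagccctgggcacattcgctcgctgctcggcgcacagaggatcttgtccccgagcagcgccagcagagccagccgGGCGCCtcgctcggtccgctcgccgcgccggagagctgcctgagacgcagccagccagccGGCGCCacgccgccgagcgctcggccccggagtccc

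RefSeq held such a stretch for 7 of the 10 genes, and Bmp2, Fst and Smad6 had none in the table used. GGCGCC was found in 2 of the 7, in Smad7 starting at -96 and -36 from the start site and in Grem1 at -91, against 8.69% of 33469 rat promoters of the same length. Neither of these genes passed the test. GGCGCC consists of G and C only, and these bases made up 78% of the Smad7 stretch and 72% of that of Grem1. The 7 stretches held 54.8% to 78% G and C, against a median of 51.2% over all promoters. The part of base composition in these matches was not tested. No copy of GGCGCC lay in this window of Id1, Id2 or Id3. In the mouse, the BMP-responsive element of Id1 is known to lie farther upstream than the window reaches. The shorter Smad box GTCT, searched on both strands, occurred in 6 of the 7 and in 84.0% of all promoters, and its palindrome GTCTAGAC in 0 of the 7 and in 0.173% of all. A match is a run of letters and was not tested for binding.

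The size of the Id and inhibitory Smad values depended on the library. OM plus EMPA replicate 3 was the highest of its group for 8 of the 10 genes, Bmp4 and Fst being the exceptions. For Bmp2 the margin was slight, at 16.5 TPM against 16.45 TPM in OM plus EMPA replicate 1. No such count was made over all genes. Relative to the OM mean, Id2 was at 2.43 in that library and at 1.41 and 1.35 in OM plus EMPA replicates 1 and 2. Id1 was at 1.92 there and at 1.22 and 1.39 in the other two. Without OM plus EMPA replicate 3 the log2 fold changes were 0.39 for Id1, 0.46 for Id2, 0.42 for Id3, 0.40 for Smad6 and 0.17 for Smad7. In that fit Id3 was the only gene of the 10 called higher (limma adjusted p = 0.0414), beside 116 of 12576 tested genes. At an unadjusted p under 0.05 from limma 5 of the 10 were higher, and the share of all genes at that threshold was not counted for this fit. OM replicate 3 was likewise the highest of its group for Id1, Id2, Id3 and Smad6, and also for Bmp2, Fst and Twsg1.

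**Figure D3:**
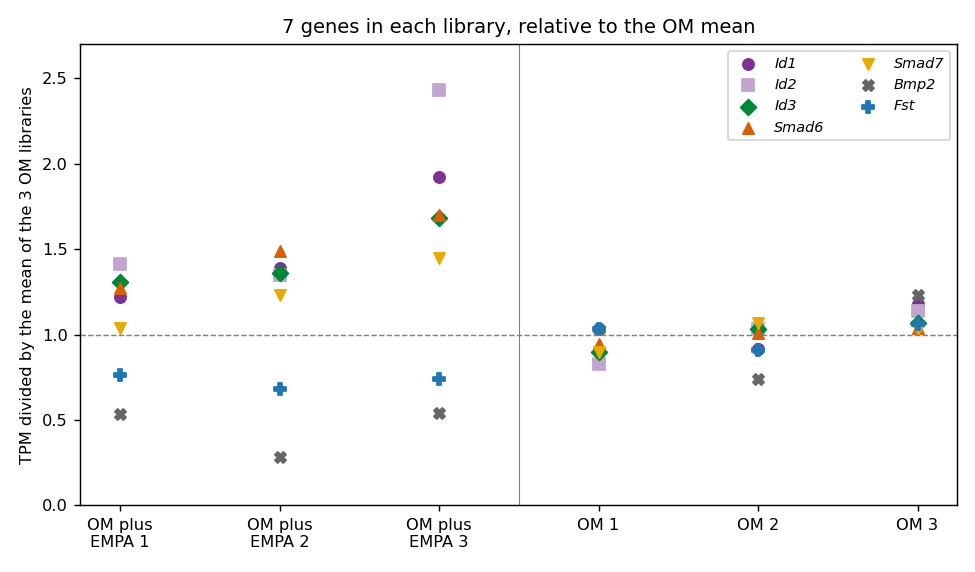
TPM of 7 genes divided by the mean of the 3 OM libraries (vertical axis, dashed line at 1) in each library. Id2 reaches 2.43 and Id1 1.92 in OM plus EMPA replicate 3, and Bmp2 is lowest at 0.281 in OM plus EMPA replicate 2.

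**Figure D4:**
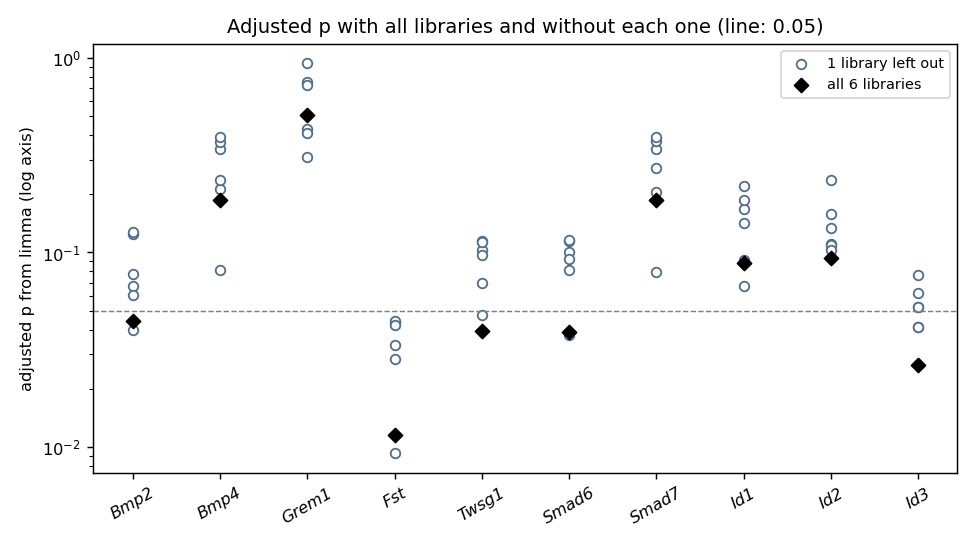
Adjusted p from limma (log axis, dashed line at 0.05) for each of the 10 genes with all 6 libraries (diamonds) and with each library left out in turn (circles). All circles of Fst lie below the line, with a highest value of 0.0444, and those of Id1 lie between 0.0672 and 0.22.

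The rest of the pathway was described from lists of 62 genes in 9 roles, of which 47 were listed in the table and 44 passed the filter. Of these 44, Chrdl1 and Atoh8 rose and Tcf12 fell, which made 2 of 44 higher and 1 of 44 lower, beside 2.06% and 4.86% of all tested genes. At an unadjusted p under 0.05 from limma 8 of 44 were higher, against 6.42% of all tested genes, and 6 of 44 lower, against 17.6%. Their median log2 fold change was 0.04, and -0.05 over all tested genes.

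Of 8 other secreted antagonists and binding proteins 1 rose and 0 fell, against 2.06% and 4.86% of all tested genes, with 3 higher and 0 lower at an unadjusted p under 0.05 from limma, against 6.42% and 17.6%. Chrdl1, the chordin-like antagonist, was at 10.7, 10.4 and 10.5 TPM with empagliflozin and at 6.73, 7.46 and 8.07 TPM without (log2 fold change 0.46, SE 0.082, limma adjusted p = 0.0196). The call for Chrdl1 was lost without OM replicate 1 or without any OM plus EMPA library (adjusted p of up to 0.0667 from limma). Crim1, a membrane protein that binds BMPs, was at 90.8, 85.0 and 79.4 TPM in the OM plus EMPA libraries and at 68.2, 76.4 and 69.1 TPM in the OM libraries (log2 fold change 0.25, limma adjusted p = 0.0597). Nog, Sost, Sostdc1 and Dand5, further BMP or Wnt antagonists, were not listed, and Kcp was under the filter.

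Of the other ligands none of 4 tested passed the test. At an unadjusted p under 0.05 from limma 1 was higher, against 6.42% of all tested genes. This was Gdf6, a ligand of joint formation, at 20.2, 24.8 and 17.2 TPM in the OM plus EMPA libraries and 9.65, 14.7 and 13.2 TPM in the OM libraries (log2 fold change 0.69, limma adjusted p = 0.0529). Bmp3 had a log2 fold change of 0.27 (limma adjusted p = 0.424). Bmp5, Bmp7, Bmp8a, Bmp10, Gdf2, Gdf5, Gdf7 and Gdf10 were not listed, and Bmp8b was under the filter. Inhba, the activin A subunit bound by follistatin, was at 353 ± 22.4 TPM with empagliflozin and 405 ± 23.8 TPM without (SD, log2 fold change -0.20, limma adjusted p = 0.104), and Inhbb had a log2 fold change of -0.01 (limma adjusted p = 0.98). Of the chordin-cleaving proteases, Tll1 had a log2 fold change of -0.28 and Bmp1, a protease despite its name, of 0.09 (limma adjusted p = 0.286 and 0.523), while Tll2 was not listed.

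None of 9 receptors passed the test. At an unadjusted p under 0.05 from limma 1 was higher and 1 lower, against 6.42% and 17.6% of all tested genes. Acvr1, a type I receptor for BMPs, was at 25.3, 24.7 and 25.8 TPM in the OM plus EMPA libraries and 18.9, 22.2 and 21.2 TPM in the OM libraries (log2 fold change 0.27, limma adjusted p = 0.056), and Acvr2a, a type II receptor shared with activins, had a log2 fold change of -0.14 (limma adjusted p = 0.206). Bambi, a decoy receptor, was under the filter, and Acvr2b was not listed. Of the signalling Smads 0 of 4 passed. Here 2 were higher and 1 lower at an unadjusted p under 0.05 from limma, beside 6.42% and 17.6% of all tested genes. Smad9 had a log2 fold change of 0.67 (limma adjusted p = 0.0629) at 3.01 ± 0.726 TPM with empagliflozin and 1.51 ± 0.392 TPM without (SD, both over 3 libraries), and Smad5 had a log2 fold change of -0.16 (limma adjusted p = 0.151). Of 8 Smad regulators 0 passed. Among them 0 were higher and 1 lower at an unadjusted p under 0.05 from limma, beside the same 6.42% and 17.6%. The ubiquitin ligase Smurf2 had a log2 fold change of -0.13 and the phosphatase Ppm1a of -0.12 (limma adjusted p = 0.199 and 0.234).

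Of 4 other BMP targets tested only Atoh8, a transcription factor, rose, where 2.06% of all tested genes were higher. It was at 3.14, 3.35 and 5.16 TPM in the OM plus EMPA libraries and at 1.30, 2.21 and 1.45 TPM in the OM libraries (log2 fold change 0.87, SE 0.19, limma adjusted p = 0.0391). As for the Id genes, OM plus EMPA replicate 3 was the highest, and without it the adjusted p was 0.0883 from limma. The call was kept without OM replicate 2 only. Msx1, a homeobox gene, had a log2 fold change of 0.17 (limma adjusted p = 0.302), and Hey1 was not listed. Of 3 E proteins, the partners of the Id proteins, only Tcf12 fell, where 4.86% of all tested genes were lower. It was at 34.4, 34.2 and 33.5 TPM with empagliflozin and at 39.2, 39.4 and 40.5 TPM without, a difference of -0.22 on the log2 scale (SE 0.045, limma adjusted p = 0.031). The call for Tcf12 was lost when any 1 library was left out (adjusted p of 0.0678 to 0.106 from limma) and under median-ratio scaling (limma adjusted p = 0.0858). Tcf4 had the same log2 fold change of -0.22 (limma adjusted p = 0.065), with libraries of the groups apart.

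**Figure D5:**
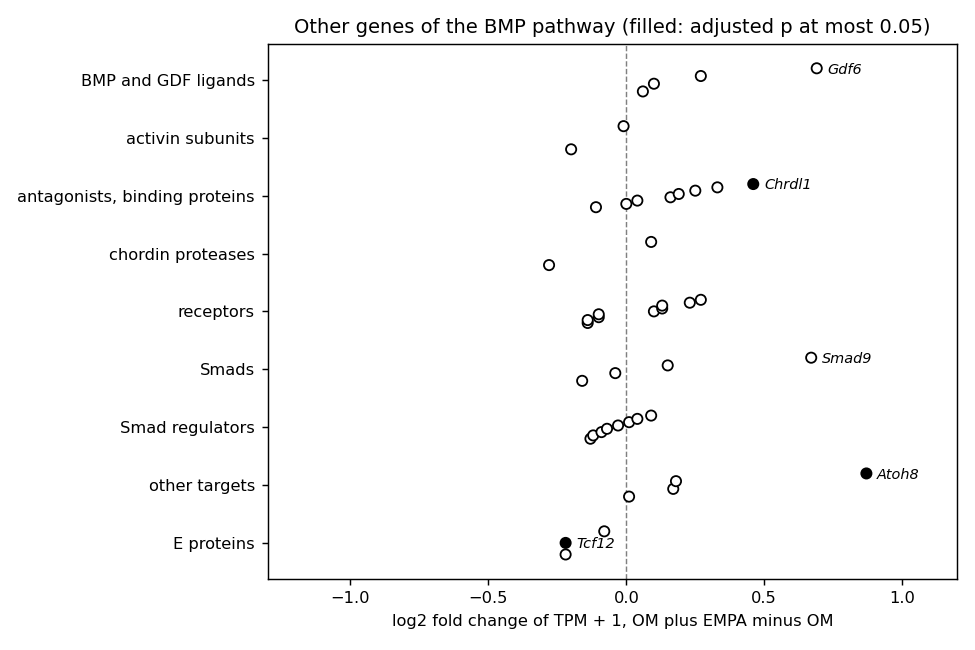
Log2 fold change of TPM + 1, OM plus EMPA minus OM, of the 44 other tested genes of the BMP pathway (points), grouped by role (rows) and filled where the adjusted p from limma was at most 0.05. Filled points are Tcf12 at -0.22, Chrdl1 at 0.46 and Atoh8 at 0.87.

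The annotation in the authors' table gives the GO term negative regulation of osteoblast differentiation to 6 of the 10 genes, Id1, Id2, Id3, Smad6, Twsg1 and Grem1, of 41 genes that carry it in the table. Of these 6, Id3, Smad6 and Twsg1 rose, where 2.06% of all tested genes were higher, and Id1, Id2 and Grem1 did not pass the test. The other genes with this term were not counted here. The opposite term, positive regulation of osteoblast differentiation, is given to Bmp2, which fell, and to Bmp4, which did not pass the test. Of all tested genes 4.86% were lower. The 10 genes were chosen as members of a known pathway, so their shared terms describe that choice.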

How the data were processed

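RNA-seq libraries of 6 samples were analysed, 3 OM plus EMPA and 3 OM. The authors deposited TPM for 13526 genes. According to the submitters' processing notes the tools were HISAT2 2.0.5, fastp, DESeq2 and RSEM, with no roles given (genome build not given in the sources used here). The authors' own fold changes and p-values, in the same table, and a second table holding a subset of its genes were not used. For 0 columns of sample values was the sample unknown, and 0 pairs of libraries held identical values. TPM keep no depth, so no precision by depth can be given.

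TPM were tested with limma 3.58.1 in R 4.3.3 on log2(TPM + 1), with the group as the only term, a variance trend, 4 residual and 3.8 prior degrees of freedom, and Benjamini-Hochberg adjustment over 12564 genes. The 10 genes and the pathway and marker lists were chosen with earlier results of these data known. Named pathway genes are those called, the 2 smallest p-values per role, and those not listed or filtered. A gene of these lists is not reported here. Alternatives were a pseudocount of 0.1, other filters and scalings, the replicate number as a block, no variance trend, and each library left out. The fit was tested on simulated data. Python 3.11.15 with pandas 2.3.3, numpy 2.4.6 and matplotlib 3.10.9 drew tables and plots.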

Additional observations from a re-analysis of the deposited data

How the results depend on the processing

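With all libraries 3 of the 10 genes were higher and 2 lower, 2 and 1 of the other pathway genes, and 259 and 611 of all tested genes. Each of the 10 genes, and Chrdl1, Atoh8 and Tcf12, kept the direction of its log2 fold change under every alternative run. Where the TPM of both groups did not overlap, leaving out a library could not reverse that direction. Leaving out 1 library gave 0 to 2 of the 10 genes higher (0 when OM replicate 1, OM replicate 2 or OM plus EMPA replicate 2 was left out, where 5 to 6 were higher at an unadjusted p under 0.05 from limma) and 1 to 2 lower, 0 to 3 other pathway genes higher (0 without any OM plus EMPA library or OM replicate 1, where 6 to 9 were higher at an unadjusted p under 0.05 from limma) and 0 lower (2 to 6 at an unadjusted p under 0.05 from limma), and 80 to 216 of all genes higher and 245 to 438 lower. Median-ratio scaling, which moved the median log2 fold change of all genes by less than 0.1, gave 1 of the 10 lower, 5 other pathway genes higher and 0 lower (3 at an unadjusted p under 0.05 from limma), and 393 and 380 of all genes. Upper-quartile scaling gave 1 of the 10 lower, 4 other pathway genes higher and 0 lower (3 at an unadjusted p under 0.05 from limma), and 403 and 384 of all genes. Mitochondrially encoded genes made up 10.3% to 10.9% of TPM with empagliflozin and 8.0% to 9.69% without. TPM rescaled without them gave 3 of the 10 genes higher and 2 lower. It also gave 2 other pathway genes higher and 0 lower (4 at an unadjusted p under 0.05 from limma), and 299 and 485 of all genes. Without a variance trend 0 of the 10 were higher (5 at an unadjusted p under 0.05 from limma) and 1 lower, 1 other pathway gene higher and 0 lower (5 at an unadjusted p under 0.05 from limma), and 154 and 366 of all genes. Shares of all genes at an unadjusted p under 0.05 from limma were counted only for the main fit, at 6.42% higher and 17.6% lower. The unadjusted counts under the alternatives therefore have no background beside them.

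The replicate numbers are shared by the groups, but no label says that a number marks a shared culture, so they were not taken as pairs. Deviations of libraries with the same number correlated at 0.098, 0.162 and 0.058, and those with different numbers at -0.120 to 0.015. Each library thus correlated best with its own number, and whether the numbers mark pairs cannot be settled here. With the replicate block 6 of the 10 genes were higher and 3 lower, adding Id1, Id2, Smad7 and Bmp4, with 7 and 2 other pathway genes and 449 and 951 of all genes. TPM keep no depth, so what depth limits cannot be said, and Smad6, at 5.13 to 9.25 TPM, is the lowest of the 10.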
